A study of Mus musculus with 8 samples.

Results

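The genes described here are 10 immediate early genes: Egr1, Egr2, Egr3, Fos, Fosb, Jun, Junb, Atf3, Ier2 and Ier3. They were chosen by symbol, and all 10 were found among the 46406 genes of the expression table. Poly(A) RNA was sequenced from mouse anterior neural progenitor cells, which had been grown in N2B27 medium over 5 days out of E14 embryonic stem cells. Basic FGF (10 ng/ml) was present for the first 3 days and the WNT inhibitor Xav939 (5 μM) from day 2 onwards, in every group. The 8 libraries comprised 4 of wild-type (WT) E14 cells and 4 of cells homozygous for a CRISPR-Cas9 deletion of the poised enhancer PE Lhx5(-109). Of the null libraries, 2 came from the clonal line Clon1 (clone 1) and 2 from Clon2 (clone 2), both derived by puromycin selection and limiting dilution, whereas no clone is named for the WT cells. Effects of the deletion and of deriving clones therefore cannot be told apart, and with 2 libraries a line the p-values measure the spread between libraries and not between lines.

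Immediate early genes are transcribed within minutes of a growth factor, calcium or stress signal without new protein synthesis, mainly through ERK and p38 kinases acting on the factors SRF, ELK and CREB at their promoters. Their mRNAs are short-lived, so that a steady-state level reflects recent signalling as well as stability. In neural progenitors fed with FGF they are known as readouts of ERK activity, and most of them encode transcription factors that switch on a later wave of genes. The EGR proteins are zinc finger factors that bind GC-rich sites. FOS and JUN proteins pair through leucine zippers to form AP-1, and ATF3 is a stress-induced factor of the related CREB/ATF family. IER2 and IER3 are small nuclear or membrane-associated proteins induced together with these factors.

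Levels are given in FPKM, that is, fragments scaled to transcript length and library size, as mean ± SD with n = 4 for WT and n = 2 for each clone. Relative depths estimated from the steps between low values lay between 0.997 and 1.20 of that of WT replicate 1. The deletion was visible in Lhx5 itself, which stood at 15.0 to 17.5 FPKM in WT and at 0.854 to 1.90 FPKM in the null libraries. All 9 progenitor markers examined, including Sox1, Sox2, Pax6 and Otx2, were expressed in every group. However, 3 of them fell in clone 1, and 5 fell and 2 rose in clone 2 (limma adjusted p under 0.05). Of all 14521 genes tested, 11.4 percent fell in clone 1, and 6.96 percent fell and 7.06 percent rose in clone 2. Clone 1 replicate 2 stood apart: Rpph1, Rmrp and Rn7sk, RNAs without a poly(A) tail, summed to 734 FPKM there and to 12.6 to 58.8 FPKM in the other libraries.

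In WT cells the 10 genes spanned a 341-fold range of mean level, and most were low. Ier2 led with 29.5 ± 0.432 FPKM, followed by Egr1 at 4.29 ± 0.495 FPKM and Jun at 3.81 ± 0.362 FPKM. Junb (1.92 ± 0.215 FPKM), Ier3 (1.83 ± 0.217 FPKM) and Atf3 (1.54 ± 0.364 FPKM) came next. Fos stood at 0.796 ± 0.221 FPKM, Egr3 at 0.289 ± 0.0851 FPKM, Egr2 at 0.113 ± 0.0496 FPKM and Fosb at 0.0865 ± 0.0230 FPKM. The WT libraries of Egr1 and Jun overlapped, as did those of Junb, Ier3 and Atf3 at each step of the order and those of Egr2 and Fosb; the other neighbours in the order did not overlap. Relative to its mean the spread between WT libraries was smallest for Ier2, with a coefficient of variation of 1.46 percent, and largest for Egr2, with 43.8 percent. WT replicate 2 was the highest of the 4 WT libraries for 7 of the 10 genes. Depth limited the lowest genes: Egr2, Fosb, Egr3 and Fos rested on WT averages of 8.72, 11.2, 14.1 and 44.4 reads in the authors' deposited table, against 1283 for Ier2 and 421 for Egr1.

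**Figure D1:**
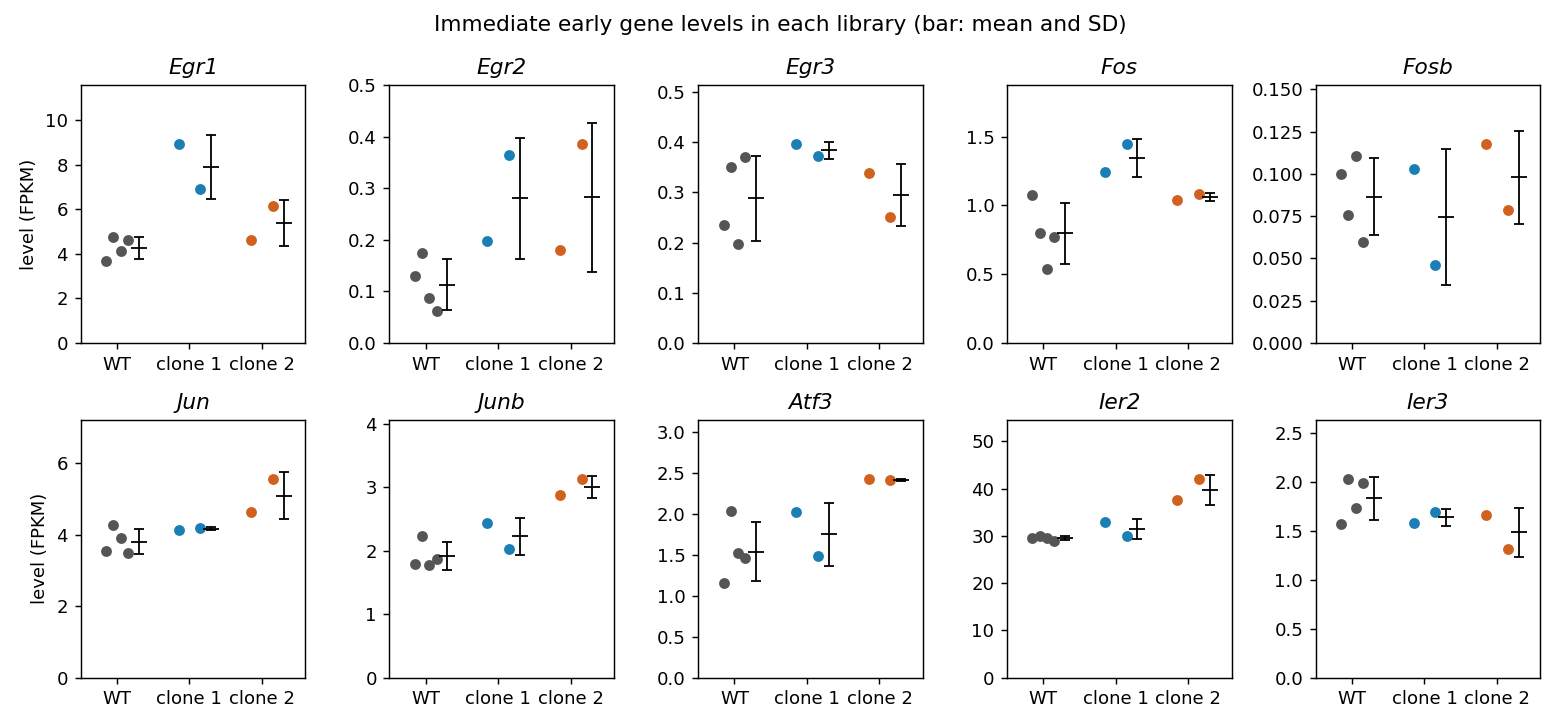
Level in FPKM (vertical axis, from 0, a separate scale per gene) of each of the 10 genes in the 4 WT, 2 clone 1 and 2 clone 2 libraries; points are libraries and bars show mean and SD. Egr1 was highest in the clone 1 libraries (8.92 and 6.90 FPKM), whereas Jun, Junb, Atf3 and Ier2 were highest in the clone 2 libraries.

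Taken as 1 genotype, the null cells did not differ from WT past the threshold in any of these genes. Mean levels were higher in null for 8 of the 10, all but Fosb and Ier3, yet the libraries of the 2 genotypes overlapped for 9 of the 10. No like share over all genes was counted. The nearest is the 38.6 percent of all tested genes with a positive log2 fold change, which covers only genes of at least 1 FPKM. Genes with a mean of at least 1 FPKM over the 8 libraries were tested with limma on log2(FPKM + 1), with Benjamini-Hochberg adjustment over all 14521 such genes and a threshold of 0.05. Of the 10 genes, 6 entered this test (Egr1, Jun, Junb, Atf3, Ier2 and Ier3), and 0 passed it. The background was low, since 0.0551 percent of all tested genes passed. Positive log2 fold changes were found for 5 of the 6, against 38.6 percent of all tested genes. At an unadjusted p under 0.05 there were 3 of 6 (Egr1, Junb and Ier2), all of them higher, against 4.74 percent of all genes in either direction and 1.21 percent higher. Egr1 had the largest log2 fold change of the 6, at 0.51 (SE 0.16, limma adjusted p = 0.908), and the median of the 6 was 0.26, against -0.025 for all tested genes. In the authors' deposited table, whose test is not stated, 6 of the 10 had unadjusted p-values under 0.05, against 4.79 percent of all 28134 genes with reads. These p-values of the authors' deposited table were 0.000635 for Egr1, 0.0492 for Egr2, 0.0177 for Fos, 0.0129 for Jun, 0.00268 for Junb and 0.0015 for Ier2. For Atf3, Ier3, Egr3 and Fosb the authors' deposited table gave 0.0878, 0.295, 0.577 and 0.945. Adjusted here over the same genes, 0 of the 10 stayed under 0.05, against 0.782 percent of all genes, Egr1 being nearest (adjusted p = 0.0723, from the authors' deposited table).

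The genes Egr2, Egr3, Fos and Fosb lay under the FPKM minimum, Fos only just, with a mean of 0.999 FPKM. They were therefore read from the same limma fit without a filter on low values, which covered 28300 genes, and 0 of the 4 passed in any comparison there. Of all genes in that fit 0.0212 percent passed for null against WT, 5.32 percent in clone 1, 4.10 percent in clone 2 and 20.8 percent between the clones, so that 0 of 4 carries little information. On the log2(FPKM + 1) scale the changes of such low genes are understated, so folds of the mean FPKM are given beside them. Tested genes of a few FPKM are affected too, and their folds and log2 fold changes are not equivalent. Junb in clone 2 was at 1.57 times its WT mean, with a log2 fold change of 0.46, and 0.63 with a pseudocount of 0.1.

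Each line was then compared with WT, and these comparisons share the same 4 WT libraries. In clone 1 the libraries lay wholly above WT for Egr1, Egr2, Egr3 and Fos. In clone 2 they did so for Egr2, Jun, Junb, Atf3 and Ier2. Of the 6 tested genes this was 1 in clone 1 and 4 in clone 2, where 12.1 and 24.7 percent of all tested genes lay above WT in this way. In the limma fit of 3 groups, 1 of 6 passed as higher in clone 1 (Egr1) and 3 of 6 in clone 2 (Jun, Junb and Ier2), and 0 passed as lower in either. Among all tested genes 15.6 percent passed in clone 1, 4.16 percent as higher and 11.4 percent as lower. The share to set beside 1 of 6 as higher is 4.16 percent, and 1 gene is too few to tell the 6 from it. In clone 2 the shares were 14.0 percent in all, 7.06 percent as higher and 6.96 percent as lower. Log2 fold changes were positive for 5 of the 6 in each line, against 38.4 percent of all tested genes in clone 1 and 49.9 percent in clone 2.

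Egr1 (ENSMUSG00000038418, chromosome 18, plus strand) encodes the prototype EGR factor, a direct target of ERK signalling through SRF and ELK. In WT it measured 3.68, 4.77, 4.11 and 4.60 FPKM. Clone 1 gave 8.92 and 6.90 FPKM, and clone 2 gave 4.64 and 6.13 FPKM. Both clone 1 libraries were above every other library, whereas 1 clone 2 library lay within the WT range. Egr1 rose 1.84-fold in clone 1, with a log2 fold change of 0.75 (SE 0.13, limma adjusted p = 0.0112). It passed in each of 13 alternative fits, with adjusted p-values from 0.00939 to 0.0439 in limma, and the log2 fold change was 0.91 without clone 1 replicate 2 and 0.58 without clone 1 replicate 1. In clone 2 the mean was 1.26 times that of WT (log2 fold change 0.27, limma adjusted p = 0.216). That log2 fold change was 0.44 without clone 2 replicate 1 and 0.098 without clone 2 replicate 2.

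Egr2, also known as Krox20 and best known from the hindbrain and myelinating glia (ENSMUSG00000037868, chromosome 10, 67535475 to 67542188, plus strand), was the only one of the 10 whose 4 null libraries all lay above all 4 WT libraries. The WT libraries were at 0.130, 0.175, 0.0874 and 0.0614 FPKM, those of clone 1 at 0.197 and 0.364 FPKM and those of clone 2 at 0.181 and 0.385 FPKM. The lowest null library exceeded the highest WT library by little, and the mean was 2.49 times that of WT at an average of 8.72 and 16.0 reads. Among tested genes 1.03 percent lay above WT in this way. The difference did not pass (log2 fold change 0.20, limma adjusted p = 0.984 without a filter, and 0.83 with a pseudocount of 0.1, adjusted p = 0.984). The hindbrain genes Hoxa2, Hoxb1 and Hoxb2 were at or below 0.0211 FPKM in every library.

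Egr3 (ENSMUSG00000033730, chromosome 14, 70077203 to 70082614, plus strand), a family member induced partly by Egr1 itself in other cells, stood at 0.236, 0.351, 0.197 and 0.370 FPKM in WT. It was at 0.396 and 0.372 FPKM in clone 1 and at 0.338 and 0.252 FPKM in clone 2. The clone 1 libraries were the highest, but only just above the highest WT library, and the clone 2 libraries lay within the WT range. Its mean was 1.33 times that of WT in clone 1 and 1.02 times in clone 2. None of its comparisons passed, and limma's adjusted p without a filter was 0.458 in clone 1 and 0.994 in clone 2.

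Of the FOS subunits of AP-1, Fos (ENSMUSG00000021250, chromosome 12, 85473890 to 85477273, plus strand) had WT levels of 1.08, 0.801, 0.536 and 0.771 FPKM. Clone 1 gave 1.25 and 1.44 FPKM, and clone 2 gave 1.04 and 1.08 FPKM. Clone 1 lay above WT and clone 2 overlapped its upper end. The clone 1 mean was 1.69 times that of WT, which did not pass (log2 fold change 0.39, limma adjusted p = 0.104 without a filter), and in clone 2 it was 1.33 times that of WT (limma adjusted p = 0.387). Fosb (ENSMUSG00000003545, chromosome 7, 19302696 to 19310051, minus strand), its close relative, was the lowest of the 10, at 0.0598 to 0.111 FPKM in WT and 0.0461 to 0.117 FPKM in null. Its mean was 0.860 times that of WT in clone 1 and 1.13 times in clone 2, and its groups overlapped in every comparison.

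Jun (ENSMUSG00000052684, chromosome 4, 95049034 to 95052222, minus strand) encodes the transcription factor c-Jun, the partner of FOS in AP-1 and a substrate of JNK. It stood at 3.55, 4.27, 3.92 and 3.49 FPKM in WT, at 4.14 and 4.19 FPKM in clone 1 and at 4.64 and 5.55 FPKM in clone 2. The clone 2 libraries were above all others, while the clone 1 libraries lay within the WT range. Jun rose 1.34-fold in clone 2 (log2 fold change 0.34, SE 0.095, limma adjusted p = 0.0474), close to the threshold. The call was lost in 9 of 13 alternative fits, with a log2 fold change of 0.23 (adjusted p = 0.390) without clone 2 replicate 2. In the other 8 the log2 fold change was 0.31 to 0.41 and the adjusted p 0.0558 to 0.108 in limma. In clone 1 the log2 fold change was 0.11 (limma adjusted p = 0.473).

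Junb (ENSMUSG00000052837, chromosome 8, 84974484 to 84978718, minus strand), a JUN family member that can oppose c-Jun, was at 1.80, 2.24, 1.78 and 1.87 FPKM in WT. It was at 2.43 and 2.02 FPKM in clone 1 and at 2.88 and 3.13 FPKM in clone 2, so that clone 2 was above every other library. Junb rose 1.57-fold in clone 2 (log2 fold change 0.46, SE 0.099, limma adjusted p = 0.0218). It no longer passed without WT replicate 3 (adjusted p = 0.0521), WT replicate 4 (0.0586) or clone 2 replicate 2 (0.21), all in limma, where the log2 fold change was 0.44, 0.45 and 0.41. In clone 1 it was 0.14 (limma adjusted p = 0.345), 0.24 without clone 1 replicate 2 and 0.052 without clone 1 replicate 1. Junb shares 173 of its 2301 exonic bases with Prdx2, an abundant peroxiredoxin gene on the opposite strand, which was also higher in clone 2 (362 against 309 FPKM in WT, limma adjusted p = 0.0181). Its part in the Junb values was not tested, and the labels do not say if counting used the strand.

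Atf3 (ENSMUSG00000026628, chromosome 1, 191170296 to 191218039, minus strand) encodes a stress-induced repressor that binds as a dimer with JUN proteins among others. In WT it was at 1.15, 2.03, 1.52 and 1.45 FPKM. Clone 1 gave 2.02 and 1.48 FPKM, and clone 2 gave 2.42 and 2.40 FPKM. The clone 2 libraries exceeded all WT libraries, but WT replicate 2 was well above the rest of its group. The clone 2 mean was 1.57 times that of WT and missed the threshold (log2 fold change 0.44, limma adjusted p = 0.0718); it passed without WT replicate 2 (adjusted p = 0.0376) and in no other of the 13 alternative fits. In clone 1 the log2 fold change was 0.12 (limma adjusted p = 0.599), 0.26 without clone 1 replicate 2 and -0.024 without clone 1 replicate 1.

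Ier2 (ENSMUSG00000053560, chromosome 8, 84661331 to 84662852, minus strand), which encodes a nuclear protein of the immediate early response, was the most abundant of the 10 and, among the WT libraries, the least variable. It stood at 29.6, 30.0, 29.5 and 29.0 FPKM in WT, at 32.9 and 29.9 FPKM in clone 1 and at 37.5 and 42.0 FPKM in clone 2. The clone 2 libraries were well above the rest. Ier2 rose 1.35-fold in clone 2 (log2 fold change 0.42, SE 0.059, limma adjusted p = 0.00605) and passed in 12 of 13 alternative fits, the exception being that without clone 2 replicate 2 (log2 fold change 0.34, adjusted p = 0.0734). In clone 1 the log2 fold change was 0.084 (limma adjusted p = 0.355), 0.15 without clone 1 replicate 2 and 0.017 without clone 1 replicate 1. Ier3 (ENSMUSG00000003541, chromosome 17, 35821684 to 35822923, plus strand), a survival factor gene regulated by NF-κB and p53 in other cells, went the other way in its means. It was at 1.57 to 2.02 FPKM in WT, at 1.58 and 1.69 FPKM in clone 1 and at 1.66 and 1.31 FPKM in clone 2, with overlapping groups and adjusted p-values of 0.548 and 0.265 in limma. The log2 fold change in clone 2 was -0.19, and -0.084 without clone 2 replicate 2 and -0.29 without clone 2 replicate 1.

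The direct comparison of the 2 lines tested whether their differences from WT were unequal. Among all tested genes 39.9 percent passed between the clones, 24.9 percent as higher and 15.0 percent as lower in clone 2. Of the 6 genes 2 passed, 1 in each direction, a share near that background. Egr1 was lower in clone 2 than in clone 1, at 0.681 times its level (log2 fold change -0.48, SE 0.16, limma adjusted p = 0.0371). This call was lost in 7 of 13 alternative fits, among them those without clone 1 replicate 1 (log2 fold change -0.32, adjusted p = 0.191) and without clone 2 replicate 1 (-0.31, adjusted p = 0.201). Ier2 was 1.27-fold higher in clone 2 (log2 fold change 0.33, SE 0.068, limma adjusted p = 0.00551), and passed in all 13 alternative fits. Junb, Jun and Atf3 lay higher in both clone 2 libraries than in both clone 1 libraries without passing. With Ier2, 4 of the 6 lay wholly higher in clone 2, against 40.1 percent of all tested genes. Positive log2 fold changes made up 4 of the 6 here and 56.2 percent of all tested genes. Their log2 fold changes for Junb, Jun and Atf3 were 0.31 (95% interval 0.055 to 0.57), 0.23 (-0.016 to 0.49) and 0.32 (-0.052 to 0.69), with limma adjusted p-values of 0.0558, 0.122 and 0.152. None of these 3 genes is therefore shown to differ between the lines.

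**Figure D2:**
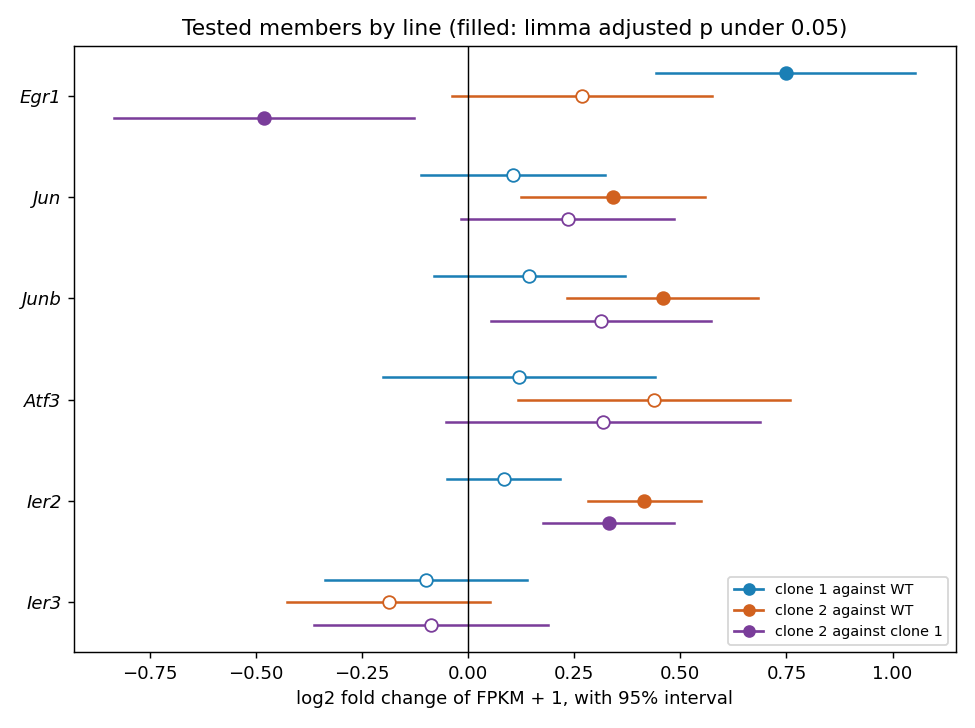
Log2 fold change of FPKM + 1 (horizontal axis, with 95% intervals) of the 6 tested genes for clone 1 against WT, clone 2 against WT and clone 2 against clone 1; filled points passed limma's adjusted threshold of 0.05. Egr1 passed in clone 1 at 0.75, and Jun, Junb and Ier2 passed in clone 2 at 0.34, 0.46 and 0.42.

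Promoter sequence was examined where it could be had. The RefSeq table (GRCm38.p6) held windows for 7 of the 10 genes, with none for Egr1, Egr3 and Ier2. The 250 bases before the annotated start were searched on both strands, and sequence farther upstream was not searched. The motifs were the serum response element bound by SRF (the CArG box), the cAMP response element TGACGTCA, its 5-base core TGACG, which that element contains, the AP-1 site TGANTCA, the EGR site GCGTGGGCG, and the AP-1-like octamers TGACATCA and TTACCTCA known from the Jun promoter. The windows of Jun and Junb, raised in clone 2, are printed beside those of Fos and Egr2, which did not pass; matches are in capitals.
Jun, chr4:95052223-95052472, minus strand: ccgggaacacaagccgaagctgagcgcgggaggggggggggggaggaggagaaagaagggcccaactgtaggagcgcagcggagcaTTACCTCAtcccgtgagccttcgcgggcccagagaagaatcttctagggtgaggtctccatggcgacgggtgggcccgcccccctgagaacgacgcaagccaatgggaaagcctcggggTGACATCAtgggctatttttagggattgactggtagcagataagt
Junb, chr8:84978749-84978998, minus strand: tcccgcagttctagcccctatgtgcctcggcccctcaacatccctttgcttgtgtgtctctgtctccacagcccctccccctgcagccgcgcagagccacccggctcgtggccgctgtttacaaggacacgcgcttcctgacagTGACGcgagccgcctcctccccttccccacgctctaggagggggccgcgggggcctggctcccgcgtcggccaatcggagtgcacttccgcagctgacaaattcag
Fos, chr12:85473640-85473889, plus strand: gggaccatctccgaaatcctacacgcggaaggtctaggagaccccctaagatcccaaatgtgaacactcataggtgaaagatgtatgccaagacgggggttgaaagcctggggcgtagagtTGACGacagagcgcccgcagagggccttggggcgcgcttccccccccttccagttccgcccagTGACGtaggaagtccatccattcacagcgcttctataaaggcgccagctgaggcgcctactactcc
Egr2, chr10:67537619-67537868, plus strand: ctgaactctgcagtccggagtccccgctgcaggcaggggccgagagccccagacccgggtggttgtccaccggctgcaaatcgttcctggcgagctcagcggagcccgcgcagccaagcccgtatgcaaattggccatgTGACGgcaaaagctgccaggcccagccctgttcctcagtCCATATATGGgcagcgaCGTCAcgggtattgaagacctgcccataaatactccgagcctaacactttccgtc

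Each window ends on the base before the start of transcription, and for Egr2, which has several annotated starts, that of an inner start is shown. The Egr2 window of the outermost start held none of the motifs, and each of its other windows held a CArG box. The Jun window held TGACATCA, beginning 45 bases before the start, and TTACCTCA, beginning 164 bases before it. These octamers occur in 2.93 and 0.728 percent of all 32851 windows of the table. Junb held 1 TGACG core and Fos 2, the nearer of which begins 66 bases before the start, and the core occurs in 17.8 percent of windows. Egr2 held 2 TGACG cores, 1 of them on the reverse strand, and a CArG box beginning 72 bases before its start, a motif found in 1.47 percent of windows. TGACGTCA (1.55 percent of windows), TGANTCA (6.75 percent) and GCGTGGGCG (0.536 percent) were in none of the 4 printed windows. These matches describe the sequence alone, and a motif missing from a window may lie outside it.

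Genes around these factors were read from lists of their regulators, relatives and targets. Of all tested genes, 4.16 percent passed as higher and 11.4 percent as lower in clone 1. The shares were 7.06 and 6.96 percent in clone 2. For the 2 lines compared directly, 24.9 percent were higher and 15.0 percent lower in clone 2. Among 21 tested genes of the wider immediate early class, 3 rose and 3 fell in clone 1 and 7 rose and 2 fell in clone 2, with medians of -0.035 and 0.09 on the log2 scale, against -0.048 and 0 for all tested genes. Between the clones 10 were higher and 7 lower in clone 2. Ctgf, a matricellular gene, had a log2 fold change of -1.82 in clone 1 (limma adjusted p = 0.000317) and was 1.08 higher in clone 2 (limma adjusted p = 0.00409). Plk2, a kinase gene, rose by 1.23 in clone 1 (limma adjusted p = 0.00274), where Phlda1 fell by 0.59 (limma adjusted p = 0.0041). Myc and Rhob, encoding a growth regulator and a small GTPase, rose by 0.55 and 0.41 in clone 2 (limma adjusted p = 0.00813 and 0.00595). Btg2, an antiproliferative gene, was 1.03 lower in clone 2 than in clone 1 (log2 fold change -1.03, limma adjusted p = 0.000236).

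Of the other AP-1, MAF and ATF genes 6 of 11 in the table were tested. Jund, the JUN family member least dependent on stimulation, was far more abundant than Jun or Junb, at 14.1 to 15.6 FPKM in WT. It fell to 12.1 and 12.6 FPKM in clone 1 (log2 fold change -0.23, limma adjusted p = 0.0386) and stood at 17.7 and 16.5 FPKM in clone 2 (0.21, limma adjusted p = 0.0514). Jund and Mafg were the 2 genes of the list that passed between the clones, both higher in clone 2. Among all tested genes 39.9 percent passed there, 24.9 percent as higher, so that 2 of 6 is near that background. Jund thus lay below WT in clone 1, where Jun and Junb did not pass in either direction. Of the EGR corepressors, Nab2 rose in clone 2 (log2 fold change 0.34, limma adjusted p = 0.0302) and Nab1 did not pass in either line.

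Genes for the factors and kinases that act on these promoters were read next. Of 9 SRF, ELK, MRTF and CREB genes 0 passed limma's test in any of the comparisons. Of all tested genes 0.0551 percent passed for null against WT, 15.6 percent in clone 1, 14.0 percent in clone 2 and 39.9 percent between the clones. Crem came nearest in clone 2 (log2 fold change 0.28, limma adjusted p = 0.0713), and Creb1 (-0.21, limma adjusted p = 0.174) in clone 1. Of 11 MAP kinase cascade genes, Mapk8, which encodes JNK1, fell in clone 1 (log2 fold change -0.34, limma adjusted p = 0.0225). In clone 2 Map2k2 rose (0.17, adjusted p = 0.0353) and Mapk3 and Map2k1 fell (-0.23 and -0.27, adjusted p = 0.0313 and 0.048), all in limma.

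ERK feedback genes, which ERK induces to restrain itself, differed between the 2 lines. Of 8 tested, 7 rose and 0 fell in clone 2 (median log2 fold change 0.79), and 0 rose and 2 fell in clone 1 (median -0.34). All 8 were higher in clone 2 than in clone 1. Of all tested genes 7.06 percent rose in clone 2, 11.4 percent fell in clone 1 and 24.9 percent were higher in clone 2 than in clone 1. Dusp6, the cytoplasmic ERK phosphatase, was at 2.41 to 4.05 FPKM in WT, at 1.46 and 1.20 FPKM in clone 1 and at 9.82 and 15.7 FPKM in clone 2. Of the 6 tested genes of this report, Egr1 had its highest mean in clone 1, where Dusp6 was lowest. Jun, Junb, Atf3 and Ier2 had theirs in clone 2, where Dusp6 was highest, and Ier3 had its in WT. The part of ERK activity in the levels of the 10 genes was not tested. Dusp5 and Spry2 rose by 1.07 and 1.73 in clone 2 (limma adjusted p = 0.00364 and 0.0059), and Dusp4 fell by 0.56 in clone 1 (limma adjusted p = 0.0136).

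**Figure D3:**
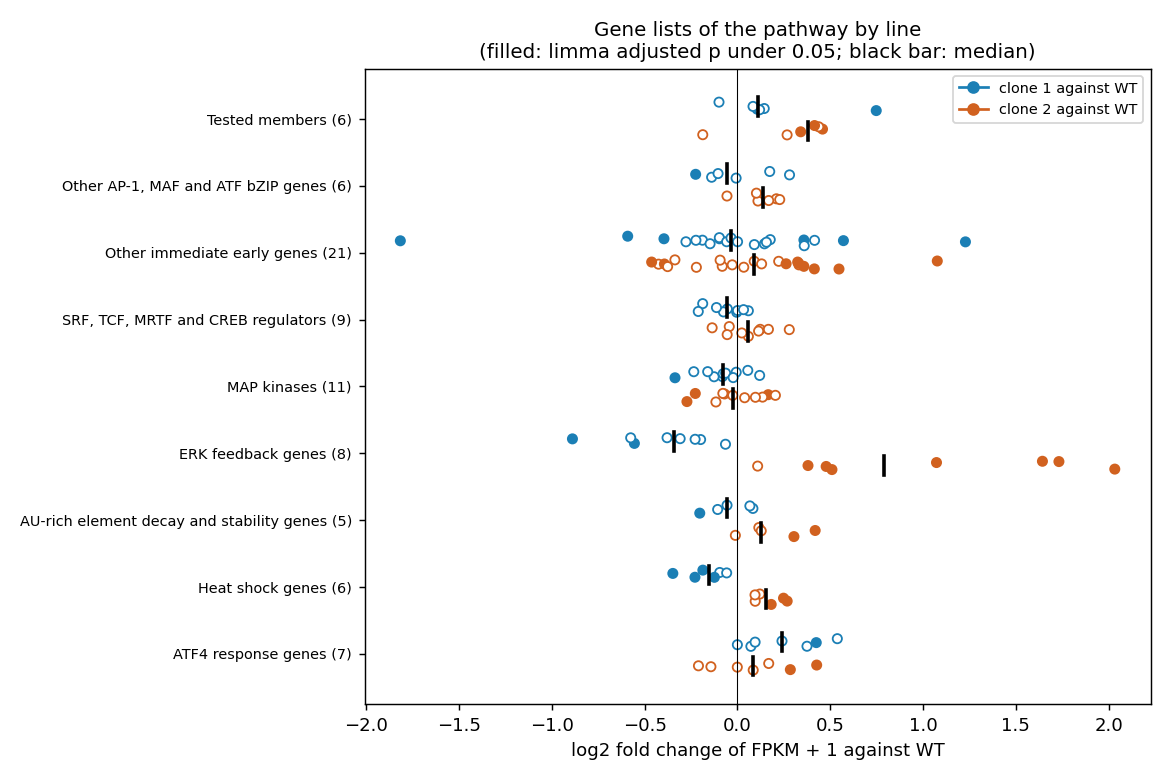
Log2 fold change of FPKM + 1 against WT (horizontal axis) of each tested gene, by list, in clone 1 and clone 2; filled points passed limma's adjusted threshold of 0.05, black bars are medians, and the number of tested genes is in brackets. ERK feedback genes had medians of -0.34 in clone 1 and 0.79 in clone 2, whereas those of the 6 tested genes of this report were 0.11 and 0.38.

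Stress-related lists were examined because Atf3, Jun and Ier2 also respond to heat, nutrient stress and handling of cells. Of 6 tested heat shock genes 4 fell and 0 rose in clone 1 and 3 rose and 0 fell in clone 2. Their medians were -0.16 and 0.15, and all 6 were higher in clone 2 than in clone 1. Of all tested genes 11.4 percent fell in clone 1, 7.06 percent rose in clone 2 and 24.9 percent were higher in clone 2 than in clone 1. The most inducible members, Hspa1a and Hspa1b, were low, at 0.364 to 1.04 FPKM in every library. Hsph1 was at 63.1 to 64.8 FPKM in WT, at 50.8 and 49.1 FPKM in clone 1 and at 72.7 and 81.6 FPKM in clone 2. Of 7 ATF4 response genes, Sesn2 rose in clone 1 (log2 fold change 0.42, limma adjusted p = 0.0058), and Atf4 and Ppp1r15a rose in clone 2 (0.28 and 0.43, limma adjusted p = 0.0193 and 0.0205). Between the clones 2 were higher in clone 2 and 2 lower, the latter being Sesn2 and Asns (log2 fold changes -0.57 and -0.58). Of all tested genes 4.16 percent rose in clone 1, and 15.0 percent were lower in clone 2 than in clone 1. Of 5 genes for decay or stability of AU-rich mRNAs, such as those of Fos and Ier3, Zfp36l2 and Zfp36l1 rose in clone 2 (0.42 and 0.30, limma adjusted p = 0.0162 and 0.0245) and Hnrnpd fell in clone 1 (-0.20, limma adjusted p = 0.019). The part of stress and of mRNA decay in the levels of the 10 genes was not tested.

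Markers of other cell types also moved with the lines, and their part in these results was not tested. In bulk RNA, fewer cells of a type and less RNA per cell cannot be told apart. The 5 pluripotency and epiblast genes summed to 25.4 to 40.6 FPKM in WT, 61.7 to 67.5 FPKM in clone 1 and 15.0 to 19.0 FPKM in clone 2. All 3 tested ones (Pou5f1, Nanog and Fgf5) rose in clone 1, as Egr1 and 4.16 percent of all tested genes did. Pou5f1 made up most of the sum, with means of 22.6, 50.5 and 12.6 FPKM in WT, clone 1 and clone 2. The untested Zfp42 and Esrrb had lower means in clone 1 than in WT (1.00 against 1.25 and 0.217 against 0.503 FPKM). The 9 progenitor markers summed to 461 to 520 FPKM in WT, 438 to 489 FPKM in clone 1 and 363 to 391 FPKM in clone 2. Most of each sum was Otx2 and Sox2, and some others moved further. In clone 2 the means of Hesx1, Pax6 and Rax were 4.41, 14.5 and 1.41 FPKM, against 26.6, 38.6 and 7.18 FPKM in WT. Sox1 and Nes were the 2 that rose there, to 27.5 and 30.7 FPKM from 21.8 and 23.4 FPKM. Hindbrain genes summed to 15.8 to 16.4 FPKM in WT, 10.0 to 12.3 FPKM in clone 1 and 19.5 to 19.7 FPKM in clone 2. Of the 3 tested, 2 fell in clone 1 and 2 rose in clone 2, against 11.4 and 7.06 percent of all tested genes. Neuronal genes (4 of 5 listed were in the table) summed to 27.7 to 42.5 FPKM over all libraries. Most of it was Map2, at 18.3 to 31.9 FPKM, whereas Dcx was at or below 0.162 FPKM in every library. Of the 3 neuronal genes tested, 1 fell in clone 2 (Elavl3, log2 fold change -0.41, limma adjusted p = 0.0251), against 6.96 percent of all tested genes. Mesoderm and endoderm genes summed to under 1 FPKM in each library, and fibroblast genes to 3.13 to 8.55 FPKM, nearly all of it Col1a2, with Lum listed at 0. Of the blood genes Ptprc was listed at 0 in every library, and Cd68 stood at 1.74 to 4.19 FPKM.

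The genes most like the 6 tested ones were found from the mean of their profiles, each centred on its WT mean. That mean profile lay between -0.11 and 0.13 in the WT libraries on the log2 scale, at 0.25 and 0.11 in clone 1 and at 0.24 and 0.34 in clone 2. Sh2d3c had the smallest root mean square difference from it over the 8 libraries (0.0494), followed by Vps36 (0.0651), AI854703 (0.0656), Dhrsx (0.0701) and Baiap2 (0.0708). No other immediate early gene was among these 5. Single genes departed from this mean: Egr1 was at 0.91 and 0.58 in clone 1 and Ier2 at 0.15 and 0.017.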

How the data were processed

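Expression was measured in 8 poly(A) RNA libraries made with the TruSeq v2 kit, per the labels. The deposited table gives FPKM per library and averaged by genotype, per the file headers. The file also holds the authors' mean read counts per genotype, used here as a signal of depth whose scaling is not stated, the authors' fold as a ratio of these counts, and the authors' p-value, whose test is not stated. The submitters' processing notes list TopHat2, Cufflinks, DESeq2, SAMtools and FastQC, and mm10 and GRCm38 as builds, with no roles. The authors' mean read counts summed to 26693189 in WT and 26864352 in null; counts per library were not used here.

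Genes with a mean of at least 1 FPKM were tested on log2(FPKM + 1) with limma 3.58.1 (R 4.3.3; trend and robust moderation), checked on simulated data. Null against WT used 2 groups, and comparisons of clones used 3 groups sharing 1 spread per gene. Null columns are numbered within a clone and were assigned to the clone, not to a sample title. Coordinates come from GENCODE M21 (GRCm38).

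The 10 genes were always named, with Lhx5. Of the 10 pathway lists, up to 3 genes a comparison past the threshold were eligible to be named by smallest adjusted p, or the nearest if none passed, and the 5 genes most alike in profile were named too. Single levels outside that rule, and all marker genes, were named after their values were seen. The genes and lists were chosen with earlier results of these data known. Alternatives were another pseudocount, no filter, rescaling by the median, each library left out, correlated lines and other groupings; a pseudocount of 0.1 without a filter was added after seeing the data.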

Additional observations from a re-analysis of the deposited data

Results flagged for a closer look

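Egr1 and Ier2 differed between the 2 null lines by limma's test of the difference itself. For Egr1 the log2 fold change of clone 2 against clone 1 was -0.48, from a mean of 7.91 ± 1.43 FPKM in clone 1 to 5.39 ± 1.05 FPKM in clone 2 (n = 2 each; limma adjusted p = 0.0371). For Ier2 it was 0.33, from 31.4 ± 2.11 FPKM to 39.8 ± 3.18 FPKM (n = 2 each; limma adjusted p = 0.00551). The 2 genes thus differed in opposite directions. Of all tested genes 39.9 percent passed between the lines, so that 2 of the 6 tested is near that background. The Egr1 call held in 6 of 13 alternative fits and the Ier2 call in all 13. Both lines carry the same labelled deletion, so what sets them apart is not given by the labels. Among the 4 WT libraries, 0 of the 10 genes had a library far from the others by Dixon's test, where chance gives about 1 in 20. The null libraries, 2 of each line, were not tested in this way.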

How the results depend on the processing

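No paired analysis was possible because columns of null libraries carry numbers counted inside each clone, which are not those of the sample titles. For null against WT, 0 of the 10 genes passed under any alternative, while the count over all genes (8) became 5 after rescaling, 3 with correlated lines, 106 when both clones were averaged in the fit of 3 groups, 14 with a pseudocount of 0.1 and no filter, and 3 to 12 with 1 library left out. In clone 1 Egr1 was the gene that passed in every fit, and the count over all genes (2266) became 1506 without a filter, 1490 with a pseudocount of 0.1 and no filter, and 443 (without clone 1 replicate 2) to 3111 with 1 library left out. In clone 2 the 3 genes became 0 (without clone 2 replicate 2) to 4 with 1 library left out, including 1 (Ier2) without WT replicate 3 or 4. The count over all genes (2036) became 1160 without a filter, 1300 with a pseudocount of 0.1 and no filter, and 174 (without clone 2 replicate 2) to 2406 with 1 library left out. Between the clones the 2 genes became 1 (Ier2) without a filter, with a pseudocount of 0.1 and no filter, and with only the 2 groups compared, and 1 to 3 with 1 library left out. The count over all genes there (5794) became 3674 with only the 2 groups compared and 3098 to 5910 with 1 library left out. Signs reversed in 3 values that did not pass: Atf3 in clone 1 without clone 1 replicate 1 (log2 fold change -0.024, and up to 0.26 with another library left out), Egr2 between the clones with a pseudocount of 0.1 and no filter (-0.0086), and Ier3 between the clones without clone 2 replicate 2 (0.015, and down to -0.19 with another left out). Where a fit leaves 1 library in a line, that library is assumed to vary like the others. The cause of these shifts was not tested. Depth limits Egr2, Egr3 and Fosb, at averages of 8.72 to 16.2 reads.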
